A study of Mus musculus with 16 samples.

Results

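The open chromatin of mouse haematopoietic progenitors held 584 broad regions, each 2000 bp or wider, among 118981 regions in all (0.491%). They were found by merging every peak that overlapped by at least 1 bp over 8 deposited peak lists on chromosomes 1 to 19 into union regions, and keeping those of at least 2000 bp. The assay was ATAC-seq, which marks accessible DNA by letting a transposase cut and tag it. The cells were described in the labels as progenitors at the multipotent stage, from mice 21 days old, 16 samples in 8 groups of 2.

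In set 1 the mice were wild type, carried Flt3-ITD or Runx1-het alone, or both (Flt3-ITD/Runx1-het). In set 2 they were wild type, carried NUP98-HOXD13 or Flt3-ITD alone, or both (NUP98-HOXD13/Flt3-ITD). Flt3-ITD is an internal tandem duplication that keeps the cytokine receptor Flt3 active, Runx1-het is the loss of 1 copy of a transcription factor needed to form blood stem cells, and NUP98-HOXD13 is a leukaemia fusion gene that joins a nuclear pore protein to a homeobox protein. The 2 sets are known only from how the titles are written, and the labels give neither what separates them nor the strain, the sort gate, the promoter of the fusion gene or the number of animals per sample. Each group had 1 peak list made for both of its samples together, so no value below has a replicate error and no test between genotypes was possible.

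Most open regions in a genome are short, about the size of a regulatory element between neighbouring nucleosomes. Broad stretches usually form where several elements lie side by side, and many of them are promoters within CpG islands, where the dinucleotide CpG is dense and DNA is mostly unmethylated. Promoters of developmental transcription factors often lie in long CpG islands that are held silent by Polycomb proteins in cells that do not use them, such as blood progenitors, while genes in strong use there can carry open chromatin far into the gene.

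The RefSeq promoters below (build GRCm38.p6, 250 bases before to 50 after the start, 5′ to 3′, CpG dinucleotides in capitals) show what the starts inside broad regions look like. Cdk6 and Basp1 were chosen because they lie in regions among the widest. Mnx1, Foxl2 and Foxd1 lead the differences between genotypes described further on. Cd48, which encodes a surface protein of progenitors and blood cells, lies in a region of 1550 bp and was picked, after its values were seen, to show a start with few CpGs.
Cdk6, chr5:3343643-3343942, plus strand: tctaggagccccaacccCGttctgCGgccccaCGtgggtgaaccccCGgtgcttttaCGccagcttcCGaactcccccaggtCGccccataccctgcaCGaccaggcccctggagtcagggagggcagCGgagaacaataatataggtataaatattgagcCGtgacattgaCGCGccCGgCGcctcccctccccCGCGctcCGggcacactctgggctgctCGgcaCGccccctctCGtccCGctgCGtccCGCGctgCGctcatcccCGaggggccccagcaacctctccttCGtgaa
Basp1, chr15:25413715-25414014, minus strand: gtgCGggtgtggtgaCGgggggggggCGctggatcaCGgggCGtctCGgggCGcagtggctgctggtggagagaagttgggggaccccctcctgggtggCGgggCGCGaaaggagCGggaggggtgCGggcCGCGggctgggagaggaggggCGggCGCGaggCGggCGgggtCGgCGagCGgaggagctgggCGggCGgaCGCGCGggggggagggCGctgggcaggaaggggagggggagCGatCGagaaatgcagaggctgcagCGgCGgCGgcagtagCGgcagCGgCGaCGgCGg
Mnx1, chr5:29478421-29478720, minus strand: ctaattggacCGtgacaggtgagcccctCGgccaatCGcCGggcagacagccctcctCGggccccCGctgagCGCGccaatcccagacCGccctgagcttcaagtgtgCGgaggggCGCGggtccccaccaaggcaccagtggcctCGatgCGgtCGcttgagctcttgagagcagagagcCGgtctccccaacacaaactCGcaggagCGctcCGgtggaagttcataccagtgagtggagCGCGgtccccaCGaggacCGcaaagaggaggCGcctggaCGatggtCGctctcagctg
Foxl2, chr9:98955357-98955656, plus strand: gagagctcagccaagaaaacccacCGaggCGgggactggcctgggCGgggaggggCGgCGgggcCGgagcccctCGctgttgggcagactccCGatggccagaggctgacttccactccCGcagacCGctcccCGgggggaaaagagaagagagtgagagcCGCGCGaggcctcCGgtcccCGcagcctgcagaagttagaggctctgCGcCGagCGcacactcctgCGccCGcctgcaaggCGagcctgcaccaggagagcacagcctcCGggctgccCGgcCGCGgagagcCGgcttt
Foxd1, chr13:98353995-98354294, plus strand: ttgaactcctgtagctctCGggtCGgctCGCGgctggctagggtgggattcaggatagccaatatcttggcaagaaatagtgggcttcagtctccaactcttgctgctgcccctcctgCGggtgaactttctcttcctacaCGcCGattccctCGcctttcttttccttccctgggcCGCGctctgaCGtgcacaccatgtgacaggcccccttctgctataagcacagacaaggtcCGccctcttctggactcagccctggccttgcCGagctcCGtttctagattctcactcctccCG
Cd48, chr1:171681742-171682041, plus strand: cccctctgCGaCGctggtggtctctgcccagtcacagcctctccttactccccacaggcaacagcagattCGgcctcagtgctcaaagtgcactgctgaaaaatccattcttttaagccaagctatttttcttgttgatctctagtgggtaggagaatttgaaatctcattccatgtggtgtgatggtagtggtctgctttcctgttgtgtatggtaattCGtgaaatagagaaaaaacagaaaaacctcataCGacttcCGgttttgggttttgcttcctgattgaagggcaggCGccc
The 300 bases held 27 CpGs at Cdk6, 38 at Basp1, 26 at Mnx1, 27 at Foxl2 and 15 at Foxd1, against 7 at Cd48. The GC content was 66.7% at Cdk6, 78.0% at Basp1 and 47.3% at Cd48.

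The broad regions were only slightly wider than the limit that defined them. Their median width was 2171 bp, against 591 bp for all union regions, and 529 of them measured less than 2500 bp, 55 measured 2500 bp or more and 4 measured 3000 bp or more. Together they covered 1.30 Mb, which was 1.63% of all union bases. At the limit itself, the regions at Zfp839, Tgds, Tfeb, Chsy3 and Nfe2l2 measured 2000 bp each, and just under it lay the regions at Nfatc2, Micall1 and Rai1 (1999 bp), Dpysl5 (1998 bp) and Rab11a (1996 bp). In 325 regions (55.7%) a single list covered 2000 bp or more, and in the other 259 the width came only from joining the peaks of several lists.

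The widest region, 3736 bp at chr5:3341075-3344810, held the start of Cdk6, the cyclin D-dependent kinase that drives progenitors into the cell cycle. In set 1 it was covered over 3446 bp in wild type, 3248 bp in Flt3-ITD, 3500 bp in Runx1-het and 3228 bp in Flt3-ITD/Runx1-het. In set 2 it was covered over 3076 bp in wild type, 3364 bp in NUP98-HOXD13, 3138 bp in Flt3-ITD and 3466 bp in NUP98-HOXD13/Flt3-ITD. All 8 lists thus covered most of it, and it also held the most summits, 91 over the 8 lists, with 9 to 13 in each list. A summit is a local maximum that the peak caller marked inside a peak.

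The next widest regions measured 3238 bp, with Ulbp1 as the nearest gene, and 3153 bp, with the start of the noncoding RNA Gm7854, and the values of 5 others among the 15 widest follow. The region at Arid1b, a subunit of the SWI/SNF remodelling complex, measured 2905 bp, and its covered width ranged from 2153 bp in NUP98-HOXD13 to 2858 bp in set-1 wild type. Rreb1, a zinc finger protein that acts downstream of Ras, had 3117 bp, covered over 1855 bp in set-2 Flt3-ITD and over 2434 to 2966 bp in the other lists. Within the span of Nr3c1, the glucocorticoid receptor, lay a region of 2892 bp with 75 summits in all, covered over 2514 to 2826 bp. The start of Foxo1, a forkhead factor restrained by growth factor signalling, lay in a region of 2763 bp, covered over 1464 bp in set-2 Flt3-ITD and 2173 to 2721 bp elsewhere. Basp1, a membrane-bound protein known from nerve growth cones, had 2989 bp, 75 summits and covered widths of 2527 to 2920 bp.

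Most broad regions were open in every genotype. A peak was present in all 8 lists in 520 of the 584 (89.0%), against 34.2% of all union regions and 77.0% of those from 1000 bp up to the limit. The rule favours such regions, since each further list can widen a union region. Of the 44 present in 7 lists, 26 lacked a peak only in set-2 Flt3-ITD, 6 only in set-1 wild type and 5 only in NUP98-HOXD13. All union regions were alike in this: 12075 were present in 7 lists, and 6672 of them lacked a peak only in set-2 Flt3-ITD. Among the lists with a peak in a region, the one with the most covered width differed from the narrowest by a median factor of 1.80, and by at least 1.5 in 405 regions, or 285 when set-2 Flt3-ITD was left out. In 173 regions with a peak in every list the lists differed by less than 1.5-fold. The most even was at Tiparp, an ADP-ribosyltransferase induced by the aryl hydrocarbon receptor, with 2127 to 2213 bp in the 8 lists. For the counts past and under 1.5-fold no share over all union regions is given, so they describe the broad regions alone.

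A further 64 regions lacked a peak in 1 or more lists. The deposited peak score has no stated meaning, and whether a filter on agreement between samples removed such peaks was not tested, so no peak does not mean closed chromatin. The best peaks of these 64 ranked lower, with a median percentile of 45.4 within their lists against 79.1 for the regions present in all 8. The percentile is the rank of a region's best peak by −log10 p among all summits of the same list. A region with several summits counts with its best one. Over all union regions with a peak, the median percentile was therefore 61.2 to 65.0 in the 8 lists. Sox11, a neural transcription factor, is an example of the 64. Its start region was covered over 2027 bp in set-1 Flt3-ITD, 2178 bp in set-2 wild type, 1984 bp in NUP98-HOXD13 and 827 bp in NUP98-HOXD13/Flt3-ITD, and had no peak in the other 4 lists. Kcnj3, an inwardly rectifying potassium channel, had 2247 bp in set-2 wild type, 2165 bp in set-2 Flt3-ITD and 1238 bp in Flt3-ITD/Runx1-het, and no peak in the other 5 lists.

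The list of set-2 Flt3-ITD stood apart from the other 7 in this series, and every result that rests on it is given with that in view. It had 81961 peaks on chromosomes 1 to 19, against 110352 or more in each of the others, and the lowest median −log10 p, 15.8. Depth was unknown, and its part in these differences was not tested. The starts of all 7 progenitor markers with a known start (out of 9 listed) lay under a peak in every list. Of the other cell types, 0 of 2 erythroid, 1 of 4 T cell, 0 or 1 of 2 B cell, 1 or 2 of 4 granulocyte and 0 or 1 of 2 stromal starts did, and no marker of any type had its start in a broad region. In the longer gene lists, starts lay in a union region for 4 of 7 B cell, 6 of 10 T and NK cell, 7 of 11 granulocyte and monocyte and 5 of 8 stroma and endothelium genes, so open starts alone do not set the cell type.

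Within a broad region the median covered width was 1664 to 1928 bp in 7 lists and 1288.5 bp in set-2 Flt3-ITD. In set 1 it was 1810.5 bp in wild type, 1785.5 bp in Flt3-ITD, 1813 bp in Runx1-het and 1664 bp in Flt3-ITD/Runx1-het. In set 2 it was 1870.5 bp in wild type, 1866 bp in NUP98-HOXD13, 1288.5 bp in Flt3-ITD and 1928 bp in NUP98-HOXD13/Flt3-ITD. The boxes of covered width by list show the same order, with set-2 Flt3-ITD below the rest. A single peak of at least 2000 bp occurred 13 times in set-2 Flt3-ITD and 61 (Flt3-ITD/Runx1-het) to 168 times (NUP98-HOXD13/Flt3-ITD) in the others.

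**Figure D1:**
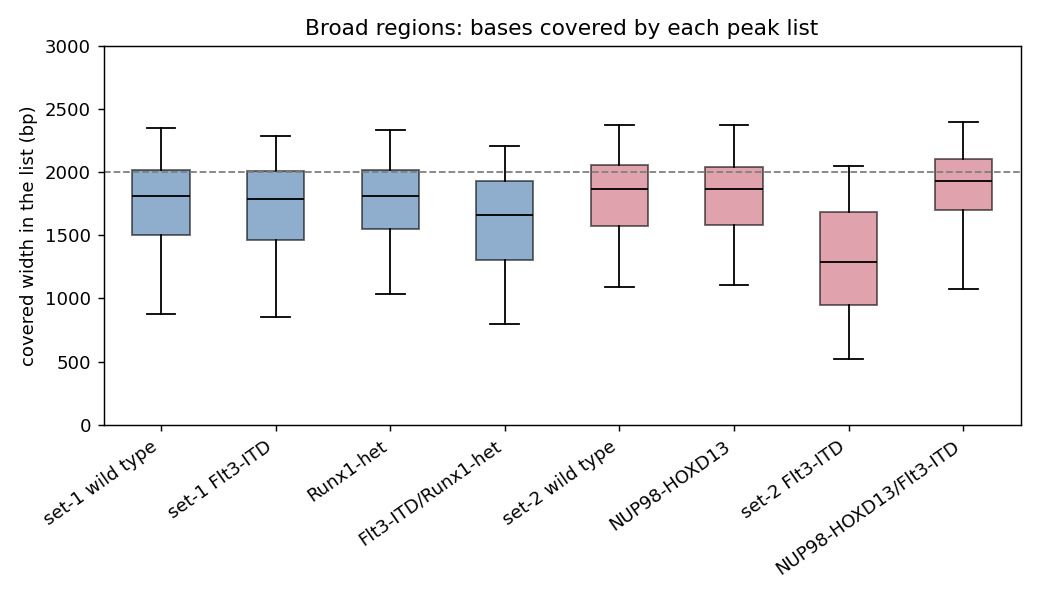
Bases of each broad region covered by the peaks of each list (vertical axis, bp), for regions with a peak in that list; boxes are quartiles, whiskers the 5th to 95th percentiles, set 1 in blue and set 2 in red, the dashed line the 2000 bp limit. The median is 1288.5 bp in set-2 Flt3-ITD and 1664 to 1928 bp in the other 7 lists.

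Broad regions held many summits at nearly the usual density. The median region had 5 summits in 6 lists, 4 in Flt3-ITD/Runx1-het and 3 in set-2 Flt3-ITD. Per 1000 covered bases the lists had 2.61 to 2.80 summits in broad regions and 2.42 to 2.58 in all regions, and neighbouring summits lay a median of 308 to 318 bp apart. The best peak of a broad region was strong but seldom extreme: its median percentile was 75.8 to 78.3 in 7 lists and 65.9 in set-2 Flt3-ITD, against 74.1 to 81.7 over the lists for regions of 1000 bp up to the limit.

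Gene starts were the commonest content of broad regions. The start of a protein-coding gene lay inside 348 of the 584 (59.6%), and together these held 453 RefSeq starts of 377 genes. Another 24 held only the start of a long noncoding RNA, 95 held the end of a gene span, 72 lay within a gene span, 38 had their nearest gene within 100 kb and 7 had none that near. The share with a start climbed with width, from 0.857% of union regions under 500 bp to 6.23%, 31.6% and 50.9% in the successive 500 bp classes and 59.6% of the broad ones. The start table covered 16457 of 20665 autosomal protein-coding genes and none on chromosome 18, which carried 28 broad regions, so these shares are lower bounds.

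Around a start, broad regions extended mostly into the gene. They reached a median of 842 bp upstream and 1359 bp downstream of the start, against 556 bp and 725 bp for regions of 1000 bp up to the limit. The downstream arm was the longer one at 67.8% of the starts, against 64.6% in that narrower class. Starts on opposite strands shared 28 regions (8.05% of those with a start), against 8.55% in the narrower class, so paired promoters were not commoner in the broad regions. The strongest summit lay farther from the start: a median of 118 to 144 bp over the 8 lists, against 64 to 71 bp, and within 200 bp in 53.2% to 58.3% of the broad regions, against 77.3% to 80.1%. It was not mostly inside the gene: it lay downstream of the start in 34.1% to 41.9% of the broad regions, against 31.7% to 37.0%. A wider region also leaves more room for a distant summit, and the part of width in this distance was not tested.

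The promoters in broad regions were rich in CpG. The 453 had a median GC content of 67.3%, a median of 27 CpGs in 300 bases and a CpG count of 0.817 times that given by their base composition. In regions of 1000 bp up to the limit the medians were 63.3%, 23 CpGs and 0.798, and in regions under 1000 bp 58.0%, 16 CpGs and 0.670. Starts outside all union regions had 47.3%, 3 CpGs and 0.191. CpG-rich promoters (GC of at least 50% and a CpG ratio of at least 0.6) made up 77.5% in broad regions, 75.7% and 54.5% in the narrower classes, and 5.02% outside.

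**Figure D2:**
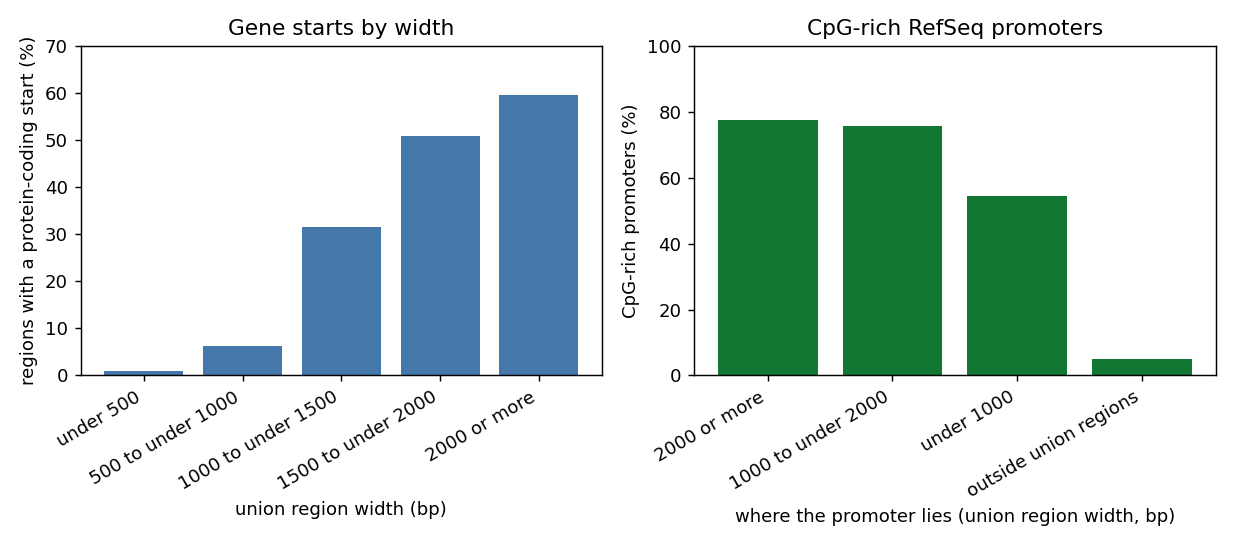
Left, share of union regions (%) that hold a protein-coding gene start, by region width; right, share of RefSeq promoters (%) that are CpG-rich, by where they lie. Starts lie in 59.6% of the broad regions and 0.857% of those under 500 bp, while CpG-rich promoters make up 77.5% in broad regions and 5.02% outside all regions.

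Most short motifs were rarer in the promoters of broad regions than in all promoters, except the GC box. All promoters include 7093 that lie outside every union region. The GC box GGGCGG, read on both strands, occurred in 77.9% of the promoters in broad regions and 47.0% of all 20085 promoters of the same length. The ETS-type motif CCGGAAG occurred in 8.17%, against 18.1% in regions of 1000 bp up to the limit and 11.9% of all. The RUNX-type motif TGTGGT was found in 8.61% against 14.8% of all, the GATA-type motif AGATAA in 3.53% against 9.57%, CCAAT in 28.0% against 38.1% and TATAAA in 6.18% against 12.7%. The AP-1-type motif TGACTCA occurred in 2.87% against 4.70%, and the STAT-type motif, TTCC and GAA with 3 bases between them, in 2.43% against 3.68%. Apart from CCGGAAG, the differences from regions of 1000 bp up to the limit were smaller, and TATAAA was not rarer than there. That class had 70.1% for GGGCGG, 10.8% for TGTGGT, 4.63% for AGATAA and 35.2% for CCAAT. It had 5.41% for TATAAA, 2.79% for TGACTCA and 3.28% for the STAT-type motif. No motif searched contains another, and a match is a description of the letters, not of a bound factor.

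Lists of blood genes had few members with a start in a broad region, with shares on both sides of the background. The background was 377 of 16457 genes with a known start (2.29%). Of 25 haematopoietic transcription factors, 2 had it, Cebpa, the factor of the granulocyte and monocyte lineage, and Runx3, a relative of Runx1. Of 20 chromatin and leukaemia genes 1 had it, Dnmt3a, the DNA methyltransferase often mutated in leukaemia, and of 21 genes of MAPK feedback and the immediate early response 1 had it, Spred2, an inhibitor of Ras signalling. None of 15 progenitor receptors and surface proteins, 14 genes of STAT5 and cytokine feedback, 20 HOX and MEIS genes, 30 interferon response genes or 16 housekeeping genes did. Nor did any of 7 B cell, 10 T and NK cell, 5 erythroid and megakaryocyte, 11 granulocyte and monocyte or 8 stroma and endothelium genes.

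The Dnmt3a region, 2661 bp at chr12:3806061-3808721, was covered over 2308, 2520, 2248 and 1717 bp in wild type, Flt3-ITD, Runx1-het and the double mutant of set 1, and over 2499, 1852, 2000 and 2629 bp in set-2 wild type, NUP98-HOXD13, Flt3-ITD and NUP98-HOXD13/Flt3-ITD. At Cebpa (2263 bp) the lists covered 1652 to 2094 bp, apart from 1029 bp in set-2 Flt3-ITD. At Runx3 (2005 bp) they covered 1092 to 1866 bp, apart from 706 bp in set-2 Flt3-ITD. Broad regions that touched a gene span but held no known start were found at Csf2ra, a chain of the GM-CSF receptor, at Nsd1, a histone methyltransferase, and at Runx2. The Csf2ra region was among the even ones, with 2170 to 2516 bp in the 8 lists, and the Nsd1 region had 1176 bp in set-2 Flt3-ITD and 2376 to 2694 bp in the others.

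The genes of the mutations themselves had no broad region. The widest union region touching Runx1 measured 1841 bp, Nup98 1223 bp, Flt3 1032 bp and Hoxd13 919 bp.

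Many broad regions held starts of genes known from other tissues. After the values were seen, 2 families of such genes were drawn up by gene symbol. Developmental transcription factors had their start in a broad region in 18 of 172 genes (10.5%), among them Sox2, Sox11, Twist1, Gli3, Six4, Zic5, Foxd1, Foxl2, Mnx1 and Nkx2-4. Genes for ion channels, synapse and axon guidance had it in 24 of 236 (10.2%), such as the potassium channels Kcnc4, Kcng3, Kcnj3 and Kcnma1, the calcium channel subunit Cacnb4 and the guidance receptor Epha4. Among genes whose start lay in any union region the shares were 15.9% and 13.0%, against 3.43% for all genes. These families were chosen with the regions in view, so the shares describe them and support nothing further.

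The peaks at these genes ranked lower than at other starts. The 42 regions of both families had a median percentile of 58.8, against 81.5 for the other 306 broad regions with a start and 71.0 for the 236 without. A peak in all 8 lists was present in 78.6% of them, against 93.1% and 85.6%. Their median covered width was 1934 bp for set-2 wild type and 1120 bp for set-2 Flt3-ITD, while the other regions with a start had 1897 bp and 1342.5 bp. In bulk cells, a region open in few cells and one weakly open in all cannot be told apart.

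**Figure D3:**
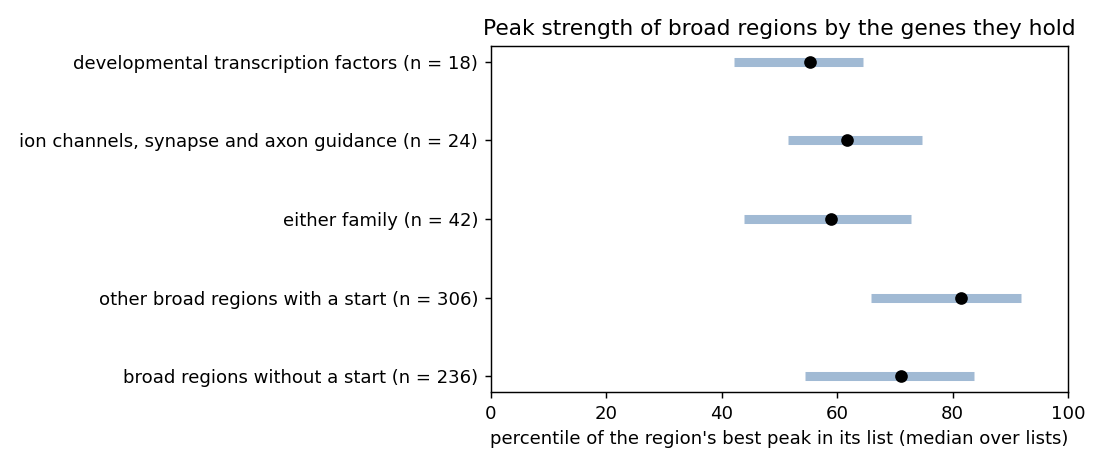
Percentile of the best peak within its list (horizontal axis, median over the lists that hold the region) for broad regions grouped by the genes whose start they hold; dots are medians over regions, bars quartiles. The 42 regions of developmental and neural genes have a median of 58.8 and the other 306 regions with a start 81.5.

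How the broad regions differed between genotypes was described by the ratio of covered widths in 2 lists, counting a region as wider or narrower past 1.5-fold. Because the members were chosen by the same peak intervals, these counts, and the regions named by their ratios, are a description. Unless stated otherwise, the share over all union regions stands beside each count of wider or narrower regions at the main setting. Counts with equal numbers of peaks, with other wild types or split by gene start have no such share. Whether shifts in those counts are particular to the broad regions was not tested. In set 1, Flt3-ITD against wild type had 35 wider regions of 565 with a peak in both lists (all union regions, 5.99%) and 42 narrower (4.17%). Runx1-het had 43 wider (5.38%) and 24 narrower (4.6%) of 565. Flt3-ITD/Runx1-het had 28 wider (4.59%) and 62 narrower (6.5%) of 560. With the same number of peaks in every list, the Runx1-het split turned to 32 wider and 38 narrower. Against the wild type of set 2, Flt3-ITD had 21 wider and 63 narrower, Runx1-het 24 and 38, and Flt3-ITD/Runx1-het 13 and 94.

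In set 2, NUP98-HOXD13 had 37 wider (all union regions, 5.11%) and 27 narrower (7.54%) of 573, and NUP98-HOXD13/Flt3-ITD had 46 wider (7.85%) and 34 narrower (5.33%) of 573. With equal numbers of peaks these became 71 wider and 20 narrower, and 81 wider and 31 narrower. Flt3-ITD had 9 wider (2.17%) and 222 narrower (16.1%) of 546, with a median ratio of 0.729, against 0.911 for all union regions. With equal numbers of peaks it had 24 wider and 175 narrower. Lists of equal genotype from the 2 sets differed to a like extent or more. Set-2 against set-1 wild type had 54 wider (7.18%) and 25 narrower (3.69%) of 568, which turned to 46 wider and 63 narrower with equal numbers of peaks. Set-2 against set-1 Flt3-ITD had 11 wider (2.77%) and 198 narrower (14.9%) of 542.

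**Figure D4:**
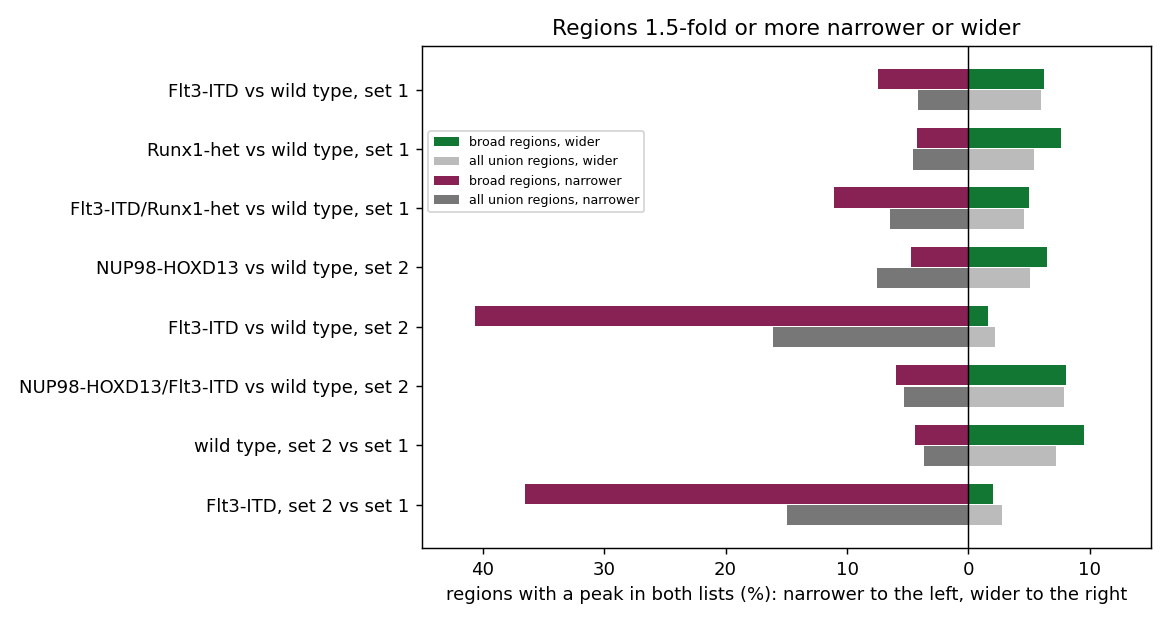
Share of regions with a peak in both lists (%) that were 1.5-fold or more narrower (left of 0) or wider (right of 0), for broad regions and all union regions, in 6 comparisons with wild type and 2 between lists of equal genotype. Set-2 Flt3-ITD has 222 of 546 broad regions narrower, and the wild-type lists of the 2 sets differ past 1.5-fold about as often as most mutants do.

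The narrower regions had fewer summits, and most kept their main one. At a nearly constant density of summits, their number largely follows the covered width by which the regions were picked. The wider regions of set-1 Flt3-ITD showed the reverse, with a median of 5 summits against 2 in wild type. In set-1 Flt3-ITD, the 42 narrower regions had a median of 995.5 bp and 2 summits, against 1815.5 bp and 5 summits in wild type. The strongest summit lay within 100 bp of the wild-type one in 38 of them (90.5%), and their best peaks had a median percentile of 74.6 against 72.6 in wild type. In set-2 Flt3-ITD the 222 narrower regions had 887 bp against 1902.5 bp, kept the main summit in 147 (66.2%), and had a median percentile of 51.6 against 71.4. Over all broad regions with a peak in both lists, the main summit stayed within 100 bp in 480 of 565 for set-1 Flt3-ITD (all union regions, 95.7%), 463 of 565 for Runx1-het (95.7%) and 455 of 560 for Flt3-ITD/Runx1-het (95.2%). In set 2 it stayed in 441 of 573 for NUP98-HOXD13 (94.9%), 385 of 546 for Flt3-ITD (93.2%) and 452 of 573 for NUP98-HOXD13/Flt3-ITD (95.2%). Regions of 1000 bp up to the limit had 88.0% to 91.5% in these comparisons. The share depends on how many summits a region holds, and its difference between width classes was not tested. The set-2 Flt3-ITD peaks lay mostly inside those of wild type. Of the bases this list covered, 94.2% were also covered in wild type, and it covered 63.3% of the wild-type bases. For the other mutants the first share was 87.2% to 90.2% and the second 83.8% to 90.8%. Set-2 wild type covered a median of 85.4% of a broad region, so a high first share is partly set by the regions.

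Narrowing in set-2 Flt3-ITD touched gene starts and other regions alike, with 127 of 329 regions with a start (38.6%) and 95 of 217 without (43.8%). A protein-coding start inside a broad region lay under a peak in 355 of 453 cases in this list (78.4%), and in 91.4% to 95.1% in the other 7. The most unequal was Foxd1, a forkhead factor of the kidney stroma, whose promoter is printed above. It was covered over 201 bp with 1 summit in set-2 Flt3-ITD, and over 1436 to 1962 bp with 4 to 6 summits in the other 7 lists. Dnm1, the neuronal dynamin of vesicle uptake, had 232 bp against 1576 bp in set-2 wild type, and Adcy5, an adenylyl cyclase, 311 bp against 1741 bp. Another 36 broad regions with a peak in wild type had none in this list (all union regions, 37.9%), and 0 had the reverse (4.36%). Among the 36 were Sox2 and Eya4, regulators of neural and inner ear development.

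Few broad regions had a peak in only 1 of the 2 lists compared. In set 1, 13 had one only in Flt3-ITD (all union regions, 18.7%) and 3 only in wild type (10.1%). For Runx1-het the counts were 12 (20.2%) and 3 (8.48%), and for Flt3-ITD/Runx1-het 11 (20.9%) and 8 (10.6%). In set 2, 2 regions had a peak only in NUP98-HOXD13 (10.9%) and 9 only in wild type (21.2%), and NUP98-HOXD13/Flt3-ITD had the same counts, 2 (10.1%) and 9 (23.2%). The start of Zfp710, a zinc finger gene, had no peak in set-1 wild type and was covered over 1718 bp in Flt3-ITD, 1963 bp in Runx1-het and 1346 bp in Flt3-ITD/Runx1-het. Set-2 wild type covered 2127 bp there, and set-1 wild type was the only list of the 8 without a peak.

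Among regions with a peak in both lists, Mnx1 had the highest ratio of covered widths in 5 of the 6 comparisons with wild type. It encodes a homeobox factor of motor neurons and the pancreas that is switched on by a chromosome translocation in some infant leukaemias. Its region, 2062 bp at chr5:29477563-29479624, was covered over 258 bp in wild type, 1632 bp in Flt3-ITD, 1598 bp in Runx1-het and 246 bp in Flt3-ITD/Runx1-het of set 1. In set 2 it was covered over 392 bp in wild type, 1793 bp in NUP98-HOXD13, 947 bp in Flt3-ITD and 1936 bp in NUP98-HOXD13/Flt3-ITD. The region reached the width limit only through mutant lists, so the rule favoured a high ratio to wild type here. Both wild-type lists and the Flt3-ITD/Runx1-het list were thus narrow, with 1 summit each, while the ratio to wild type was 6.33 and 6.19 in the single mutants of set 1 and 4.57, 2.42 and 4.94 in set 2. The set-2 Flt3-ITD list, with the ratio of 2.42, also had only 1 summit. The strength of the best peak did not follow the width: its −log10 p was 39.1 to 47.4 in the 4 lists of set 1, and in set 2 it was 77.4 for wild type, the highest, and 4.0 for Flt3-ITD, the lowest.

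Regions wider in both NUP98-HOXD13 lists outnumbered those narrower in both. Both lists were at least 1.5-fold wider than set-2 wild type in 24 of 566 broad regions (all union regions, 2.31%) and narrower in 3 (1.96%). These counts share the set-2 wild-type list. The width rule also favours regions that are wide in some list, and NUP98-HOXD13/Flt3-ITD was the widest list in 180 of the 584. Without the NUP98-HOXD13 list 507 broad regions remained, and without the NUP98-HOXD13/Flt3-ITD list 478. The excess of wider regions is thus only a description. The counts of wider and narrower regions were 10 and 0 when both wild-type lists had to be passed, and 49 and 7 with equal numbers of peaks. In 16 of 534 regions both lists with the fusion gene were wider than both lists of set 2 without it (all union regions, 1.04%), and in 0 narrower (0.315%).

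At the start of Tox2, an HMG-box factor, NUP98-HOXD13 covered 2005 bp and NUP98-HOXD13/Flt3-ITD 2254 bp, and the other 6 lists 432 to 1346 bp. At Pfkfb3, which sets the rate of glycolysis, the fusion gene lists covered 1793 and 1875 bp and the others 696 to 1078 bp. Mypop, a Myb-related repressor, had 1683 and 2165 bp against 561 to 890 bp. In these 3 regions the lists with and without the fusion gene did not overlap, and other broad regions, such as that near Lrrc74a, showed the same. The width limit favours regions that are wide in some list, and here those were the fusion gene lists. The lack of overlap is partly set by the rule and is only a description. No share over all union regions is given for this pattern. At Bcr, the partner of Abl1 in chronic myeloid leukaemia, the fusion gene lists covered 1915 and 2144 bp, set-1 wild type 1803 bp and the other 5 lists 581 to 1154 bp. Within the span of Cacna1h, a calcium channel, they covered 1926 and 2100 bp, against 1380 bp or less in the others.

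A single broad region was confined to the fusion gene lists. It lay within the span of Adgra3, an adhesion receptor, at chr5:50014641-50016707, and had 1522 bp in NUP98-HOXD13, 2067 bp in NUP98-HOXD13/Flt3-ITD and no peak in the other 6 lists. Each of the 2 lists had 6 summits there. The NUP98-HOXD13/Flt3-ITD list alone covered the whole region, which therefore passed the width limit through a list where it was open. No share over all union regions is given for this pattern. All 3 mutants of set 2 were wider than wild type in 6 of 534 regions (all union regions, 0.344%) and narrower in 3 (1.04%). At Spock2, a proteoglycan of the extracellular matrix, set-2 wild type was low at 722 bp, while the other lists covered 1404 to 2189 bp, set-1 wild type with 1680 bp among them.

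Regions narrower with Flt3-ITD were few when both sets were required. Both Flt3-ITD lists of set 1 were at least 1.5-fold narrower than wild type in 22 of 558 regions (all union regions, 1.86%) and wider in 16 (2.03%). These became 12 and 0 against both wild-type lists. In set 2, both were narrower in 19 of 540 (2.37%) and wider in 7 (0.724%). All 4 Flt3-ITD lists were narrower in 1 of 526 (0.147%) and wider in 0 (0.0474%). The narrower one held the start of Tanc1, a scaffold protein of the synapse, at chr2:59611576-59613719.

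The Tanc1 region was covered over 2142 bp in wild type, 1226 bp in Flt3-ITD, 1220 bp in Runx1-het and 606 bp in Flt3-ITD/Runx1-het of set 1. In set 2 it was covered over 1990 bp in wild type, 2061 bp in NUP98-HOXD13, 1107 bp in Flt3-ITD and 1269 bp in NUP98-HOXD13/Flt3-ITD. The lists fell into 1990 bp or more without Flt3-ITD and 1269 bp or less with it, except that Runx1-het lay with the narrow ones. The best peak stayed among the strong ones of every list, at percentiles from 88 to 96. A region with no gene within 100 kb, at chr13:60479036-60481490, was covered over 1030 bp, 1050 bp and 1118 bp in set-1 Flt3-ITD, Flt3-ITD/Runx1-het and set-2 Flt3-ITD, and over 2342 to 2390 bp in the other 5 lists, the NUP98-HOXD13/Flt3-ITD list with 2371 bp among them.

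Within a set, both lists with Flt3-ITD were narrower than both without it in 9 of 556 regions of set 1 (all union regions, 0.492%) and 11 of 534 of set 2 (0.666%), and wider in 1 (0.426%) and 0 (0.17%). Alkbh5, an RNA demethylase, had 1204 and 1202 bp in the Flt3-ITD lists of set 1 against 2081 and 2108 bp in wild type and Runx1-het. In set 2 it had 1747 bp in Flt3-ITD and 2181 bp in the double mutant, against 2247 bp in wild type and 1345 bp in NUP98-HOXD13. Slc35e4, a solute carrier, had 1038 and 1042 bp in the Flt3-ITD lists of set 2 against 1953 and 1898 bp in those without. In set 1 its values were 1385 bp in wild type, 1089 bp in Flt3-ITD, 1844 bp in Runx1-het and 1076 bp in the double mutant.

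Both lists of set 1 with Runx1-het were at least 1.5-fold wider than wild type in 18 of 558 regions (all union regions, 1.74%) and narrower in 9 (1.82%). They were wider than both lists without it in 3 of 556 (all union regions, 0.298%) and narrower in 0 (0.448%). The first held the starts of Znhit1, a subunit of a chromatin remodelling complex, and Plod3, a collagen-modifying enzyme, with 1870 bp in Runx1-het and 1545 bp in Flt3-ITD/Runx1-het, against 472 bp in wild type and 480 bp in Flt3-ITD. Set-2 wild type, with both copies of Runx1, had 1522 bp there. The others lay near Snd1 and within the span of Ntrk3, a neurotrophin receptor.

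All 3 mutants of set 1 were wider than wild type in 12 of 556 regions (all union regions, 1.1%) and narrower in 5 (0.855%). At Ffar2, a receptor for short-chain fatty acids, this wild type had 1053 bp, the mutants of set 1 had 1879 to 2199 bp and set-2 wild type had 1871 bp.

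Among regions with a peak in both lists, Foxl2 and the region at Ctnna2 and Lrrtm1 had the lowest ratios of the set-1 double mutant to wild type. Foxl2, a forkhead factor of the ovary, was covered over 2009 bp in wild type, 856 bp in Flt3-ITD, 1197 bp in Runx1-het and 302 bp in Flt3-ITD/Runx1-het. Ctnna2 and Lrrtm1, genes of the synapse, had 2220, 1037, 1649 and 346 bp in the same order. In set 2, Foxl2 had 1433 bp in wild type, 1512 bp in NUP98-HOXD13, 838 bp in Flt3-ITD and 1734 bp in NUP98-HOXD13/Flt3-ITD. Both double mutants were narrower than their wild types in 6 of 555 regions (all union regions, 0.772%), including Tanc1 and Wnt16, and wider in 2 (0.602%), at Orai2, a calcium channel, and near Serpinb8.

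Against the single mutants, Flt3-ITD/Runx1-het had 25 wider regions (all union regions, 3.56%) and 56 narrower (7.15%) than Flt3-ITD, and 16 wider (4.5%) and 81 narrower (6.92%) than Runx1-het. NUP98-HOXD13/Flt3-ITD had 38 wider (9.13%) and 36 narrower (4.41%) than NUP98-HOXD13. Against set-2 Flt3-ITD it had 240 wider (19.9%) and 8 narrower (2.69%). The map of covered width for named regions shows these groups side by side.

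**Figure D5:**
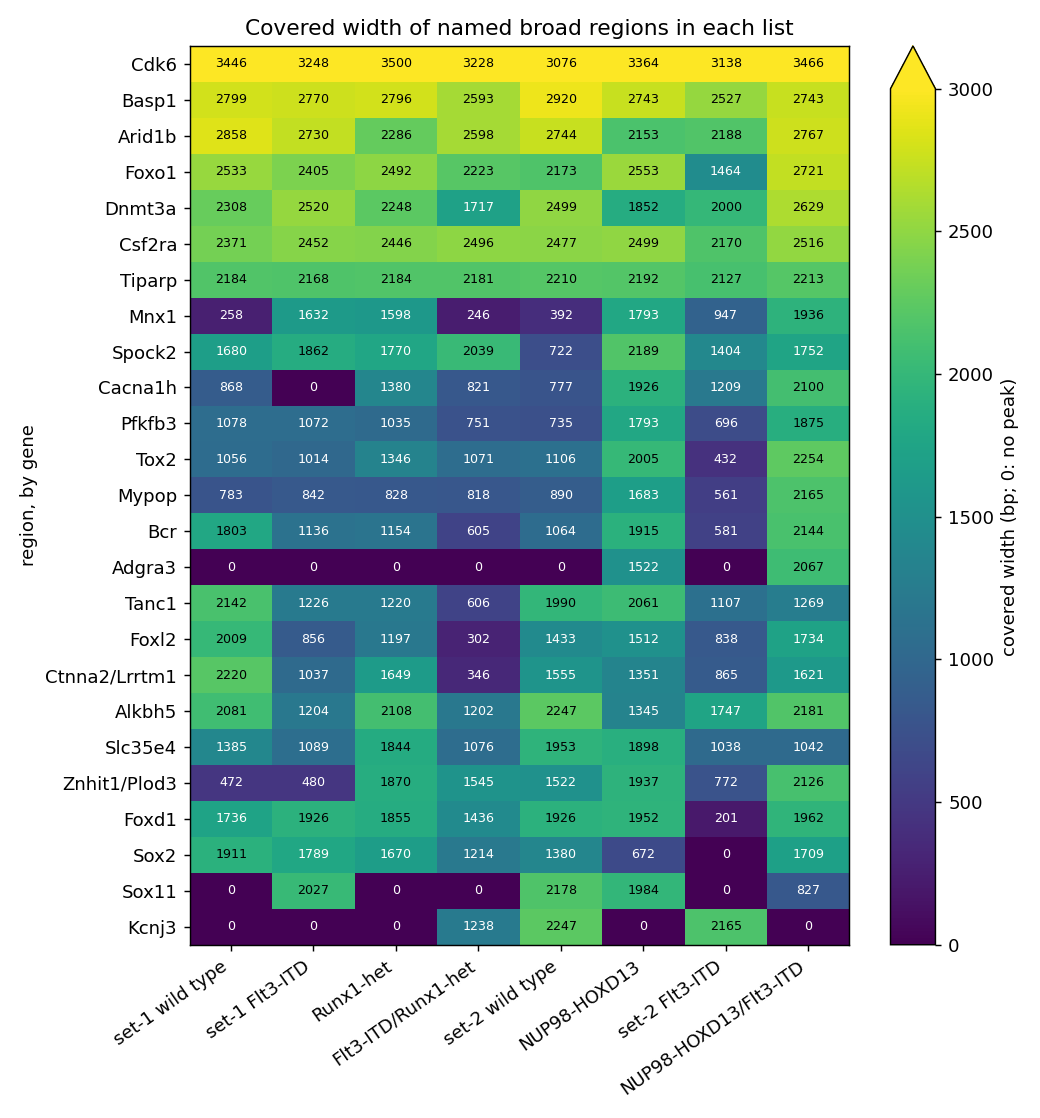
Covered width (bp, colour and printed value, 0 where the list has no peak) of 25 broad regions, by gene, in the 8 lists. Cdk6, Csf2ra and Tiparp are wide in every list, Tox2, Pfkfb3 and Mypop are widest in both NUP98-HOXD13 lists, and Tanc1 is narrow in the 4 Flt3-ITD lists and in Runx1-het.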

How the data were processed

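ATAC-seq of 16 samples (8 groups of 2) was used as the authors deposited it, with 1 peak list per group. The labels name a published tagmentation protocol, and the submitters' processing notes name Bowtie2, MACS2, mm10 and GRCm38. Calling thresholds were not given in the sources used here. Each summit has a deposited score, fold enrichment (a ratio), −log10 p-value, −log10 q-value and position. These are the authors' values and only ranked or filtered peaks within a list. Depth was unknown.

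Intervals overlapping by 1 bp were merged in python 3.11.15 with pandas 2.3.3. Covered width is the length under a list's peaks, summits are distinct positions, and summits within 100 bp counted as the same. The steps were tested on simulated data. Starts, promoters and gene spans came from RefSeq tables of GRCm38.p6. X and Y peaks, 2.55% of all, were left out.

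The members and gene lists were chosen with earlier results of these data known, and the 2 families by symbol after the values were seen. Named regions were the widest, those with most summits, those at the limit, gene list members, the largest ratios and one-list regions per comparison, and those shared by the mutants of a set. Splits of a set by 1 mutation, and regions named as most even, were added after the values were seen. Alternatives were other width limits, joins, filters and wild types, equal peak numbers and leaving out each list.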

Additional observations from a re-analysis of the deposited data

Results flagged for a closer look

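In 17 broad regions Flt3-ITD went past 1.5-fold in opposite directions in the 2 sets, in each of them wider than wild type in set 1 and narrower in set 2. The difference was not tested, and the set-2 Flt3-ITD list stands apart as described above. In set 1, 35 broad regions were wider with Flt3-ITD. In set 2, 222 of 546 were narrower and 9 wider, which left little room for the reverse pattern. No share over all union regions is given for the 17. Near Myc, the regulator of cell growth, a region at chr15:62037086-62039273 had 619 bp in wild type and 1028 bp in Flt3-ITD of set 1, and 2158 bp and 458 bp in set 2. Sphk1, a sphingosine kinase, had 735 and 1707 bp in set 1, and 1799 and 678 bp in set 2. In both, the wild-type lists differed by more than 1.5-fold as well.

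Outside the chromosomes used, the X chromosome held 23 union regions of 2000 bp or more. The region at Ddx3x, an RNA helicase, was even, with 1835 to 1935 bp in the 8 lists.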

How the results depend on the processing

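No paired analysis was possible because each group has 1 list for both of its samples and no value per sample. Of 76 alternatives, 55 left a count within 1.5 times its value and 21 did not. The number of broad regions was 3886 at a limit of 1500 bp, 4 at 3000 bp and 325 when 1 list alone had to reach the limit, and 478 to 560 when 1 list was left out. Against the wild type of the other set, Flt3-ITD of set 1 had 21 wider regions, Runx1-het 24 wider and 38 narrower, Flt3-ITD/Runx1-het 13 wider and 94 narrower, and NUP98-HOXD13/Flt3-ITD 20 narrower. With the 81961 strongest peaks of every list, Runx1-het had 38 narrower, NUP98-HOXD13 71 wider, set-2 Flt3-ITD 24 wider and NUP98-HOXD13/Flt3-ITD 81 wider. With a −log10 q of at least 5, set-2 Flt3-ITD had 5 wider. The following alternatives were chosen after seeing the data. Regions wider in both NUP98-HOXD13 lists numbered 49 with equal peaks and 10 against both wild types, and narrower ones 7 and 0. For both Flt3-ITD lists of set 1, narrower regions numbered 35 with equal peaks and 12 against both wild types, and wider ones 0 against both. The cause of these shifts was not tested. The 222 narrower regions of set-2 Flt3-ITD became 175 with equal peaks and 201 against the other wild type. Unknown depth and the lack of a list per sample limit every difference in width.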

Other observations

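Broad regions were spread over all 19 autosomes. Their share of the union regions ran from 0.355% on chromosome 4 to 0.759% on chromosome 17.

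Some broad regions without a known start had peaks in only part of the lists. A region with no gene within 100 kb, at chr12:50763972-50766329, had 1130 bp in set-1 Flt3-ITD, 1332 bp in Flt3-ITD/Runx1-het, 1058 bp in NUP98-HOXD13 and 706 bp in NUP98-HOXD13/Flt3-ITD, and no peak in either wild type, in Runx1-het or in set-2 Flt3-ITD. Near Hlf, a factor of blood stem cells, a region had 1870 bp in set-2 wild type, 2005 bp in NUP98-HOXD13, 1409 bp in NUP98-HOXD13/Flt3-ITD, 902 bp in set-1 Flt3-ITD and 1385 bp in Runx1-het, and no peak in the other 3 lists.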
